A study of Mus musculus with 12 samples.

Results

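Slc2a2, Gckr, Pfkl, Pklr, Khk, Mlxipl, Gys2 and Pygl are 8 genes of hepatic glucose and fructose use and of glycogen, found by symbol among the 25033 entries of the Ribo-seq table. In Ribo-seq, RNA outside ribosomes is digested away and the protected pieces, or footprints, are sequenced and counted for each gene. The livers came from male C57BL/6 mice aged 16 weeks, which received their diets for 8 weeks beginning at an age of 8 weeks. The HFD group received a high-fat diet and the LYC group received the same diet with lycopene, a carotenoid. Each group had 3 Ribo-seq libraries, named HFD1 to HFD3 and LYC1 to LYC3. For LYC the treatment label gives the high-fat diet alone, so the lycopene comes from the sample titles and the study's text. The labels speak of pooling RNA or footprints ahead of the libraries, and the study's methods of pooling digested samples. Whether each library is 1 mouse is not given in the sources used here, so p-values measure the spread between these libraries. Both groups shared the high-fat feed. The comparison asks how adding lycopene to a high-fat diet goes with the ribosome footprints on these genes.

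In hepatocytes glucose enters through the transporter GLUT2 and is phosphorylated, a step under the control of the regulatory protein encoded by Gckr. The sugar phosphate is either burned in glycolysis or stored as glycogen by glycogen synthase, and glycogen phosphorylase releases it again. Fructose is phosphorylated by ketohexokinase and so bypasses the phosphofructokinase step. ChREBP, encoded by Mlxipl, is a transcription factor that senses sugar phosphates, pairs with MLX and binds pairs of E-box-like motifs called carbohydrate response elements.

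Gys2, the liver glycogen synthase, was upregulated in LYC, while Khk, the ketohexokinase, was lower in LYC and passed the adjusted threshold but not the limit on the fold. Gys2 averaged 41.4 ± 6.79 RPKM in HFD and 164 ± 102 RPKM in LYC (SD, n = 3 libraries each). Khk had a mean of 367 ± 70.7 RPKM in HFD and 156 ± 33.3 RPKM in LYC (n = 3 each, SD). Mlxipl and Gckr had log2 fold changes of -1.20 and 0.72 and passed neither the adjusted nor the unadjusted threshold on p. The transporter Slc2a2, the glycolytic enzymes Pfkl and Pklr and the phosphorylase Pygl had values whose intervals held 0.

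The 8 genes were placed on GRCm38.p6 with the RefSeq annotation. Slc2a2 spans chr3:28697903-28728361 and Pklr chr3:89136122-89146815, both on the plus strand. Khk (chr5:30921436-30931248), Gckr (chr5:31297266-31327302) and Mlxipl (chr5:135089890-135139768) also lie on the plus strand. Gys2 (chr6:142422612-142473130), Pfkl (chr10:77986947-78009807) and Pygl (chr12:70190815-70227683) lie on the minus strand. Exons of Pklr overlap those of Hcn3 and exons of Mlxipl overlap the antisense transcript Gm43500, both on the opposite strand. Whether the counting used the strand is not given in the sources used here, so reads of these pairs may not be told apart.

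Of the 8 genes, 7 had a promoter in the RefSeq sequence table, Pklr and Mlxipl with a pair of start sites each, which gave 9 windows of the 250 bases before a start. Gys2 had none. The windows were searched on both strands for CACGTG, the E-box, and for CACGNG followed after NNNNN by CNCGTG, a spaced pair of E-box-like parts as in a carbohydrate response element. Both patterns read the same on either strand, and some forms of the spaced pair hold an E-box, which the Pklr match does not. Of 32851 promoter windows of the same length, 6.02% held the E-box and 0.0396% held the spaced pair. The 3 windows with a match are shown because Mlxipl encodes a factor that binds such motifs and the other 2 belong to enzymes of glucose and fructose use. Capitals mark the match, and each sequence reads 5′ to 3′ on the plus strand of GRCm38.p6. The Pklr window is chr3:89136373-89136622, with the spaced pair starting 170 bases before the start site. The Khk window is chr5:30921309-30921558, with an E-box starting 71 bases before the start. The Mlxipl window is chr5:135089640-135089889, with an E-box starting 98 bases before the upstream start.
Pklr: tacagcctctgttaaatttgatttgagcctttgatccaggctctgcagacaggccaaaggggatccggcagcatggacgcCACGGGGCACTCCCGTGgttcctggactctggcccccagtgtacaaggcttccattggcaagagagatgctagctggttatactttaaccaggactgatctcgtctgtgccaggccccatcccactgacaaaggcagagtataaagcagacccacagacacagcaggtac
Khk: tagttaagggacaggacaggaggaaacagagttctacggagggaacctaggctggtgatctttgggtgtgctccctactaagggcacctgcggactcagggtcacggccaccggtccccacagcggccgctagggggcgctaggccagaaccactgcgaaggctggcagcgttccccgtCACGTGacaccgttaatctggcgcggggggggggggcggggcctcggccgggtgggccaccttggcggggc
Mlxipl: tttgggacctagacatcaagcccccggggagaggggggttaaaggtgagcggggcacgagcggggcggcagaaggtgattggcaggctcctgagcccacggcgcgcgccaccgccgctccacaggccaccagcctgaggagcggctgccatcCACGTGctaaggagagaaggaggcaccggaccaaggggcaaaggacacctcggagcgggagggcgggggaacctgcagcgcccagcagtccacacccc
The windows of Slc2a2, Gckr, Pfkl, Pygl, the other Pklr start and the other Mlxipl start held neither pattern. These matches describe the letters of the windows, since binding was not measured.

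The deposited unit was RPKM, a read count divided by gene length and by the reads of the library. Reads were recovered from the steps between RPKM values and corresponded to library totals of 834410 to 4405541 in HFD and 311050 to 412116 in LYC. By the medians, HFD libraries were 6.91 times deeper. A single read on a gene of 1 kb thus stood for 2.43 to 3.21 RPKM in LYC, beside at most 1.20 RPKM in HFD. A second table, labelled RNA-seq, had 6 columns, each of which differed from 1 Ribo-seq library by less than sampling noise over the median gene. For LYC 75.0% to 75.7% of the genes with at least 10 reads over both tables had equal counts, and for HFD 17.5% to 39.7% did. Its LYC totals were larger, at 582184 to 687242, and a single gene, Lars2, made up 76.6% to 77.7% of that excess over the reads recovered for listed genes, beside 49.1% to 68.0% in HFD. It was counted once, and translational efficiency was not tested. In bulk liver, fewer cells of a type and less RNA per cell cannot be told apart. Summed hepatocyte markers reached 39907 to 43750 RPKM in HFD and 28657 to 36105 RPKM in LYC, without overlap as deposited but with overlap after scaling by TMM (trimmed mean of M-values), at 34625 to 38978 and 28518 to 39488. Alb was the largest part of each sum, at 25585 to 29641 RPKM in HFD and 13379 to 22447 RPKM in LYC. As deposited, Alb, Ttr, Apob, Fgb and Serpina1c had lower means in LYC, and Apoa1, Cps1, Tat and Hpd had higher means. Of the 9 markers, 2 were called higher (Cps1 and Tat, at log2 fold changes of 1.08 and 1.55), beside 6.98% of all genes tested. None was called lower, beside 6.32%. Summed cholangiocyte markers were 15.4 to 25.0 RPKM in HFD and 2.89 to 9.25 RPKM in LYC, with Krt19, Krt7 and Epcam at 0 reads in LYC. In all of the deeper HFD libraries Krt19, Krt7 and Epcam had only 6, 16 and 10 reads. The LYC sums rested on 8 reads of Spp1 and 7 of Sox9, and no cholangiocyte marker had enough reads to be tested. Summed lymphocyte and neutrophil markers were 3.20 to 5.76 RPKM in HFD and 13.6 to 27.3 RPKM in LYC, where Cd3e and Cd79a had 0 reads and S100a8 and S100a9 had 4 reads each in all. In all of HFD, Cd3e and Cd79a had 5 and 6 reads. Both of these lists remained without overlap after scaling. The summed ranges of Kupffer cell, stellate cell, endothelial cell, muscle, adipocyte and red blood cell markers overlapped between the groups. The part of these differences in the results was not tested.

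Levels were compared between genes on the RPKM scale, which is per length. In HFD the order of means was Khk, Pygl, Pklr, Slc2a2, Gys2, Gckr, Mlxipl and Pfkl. The lowest Khk library, at 290 RPKM, lay above the highest Pygl library, at 242 RPKM. Pygl lay above Pklr in every library, Pklr and Slc2a2 overlapped, and both lay above Gys2. Gys2 overlapped with Gckr and Gckr with Mlxipl, and Pfkl lay below all. In LYC the order of means was Pygl, Gys2, Khk, Pklr, Slc2a2, Gckr, Mlxipl and Pfkl, and the first 5 overlapped with each other in their libraries. Pfkl had the lowest mean in both groups, but in LYC its libraries overlapped with those of Mlxipl.

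**Figure D1:**
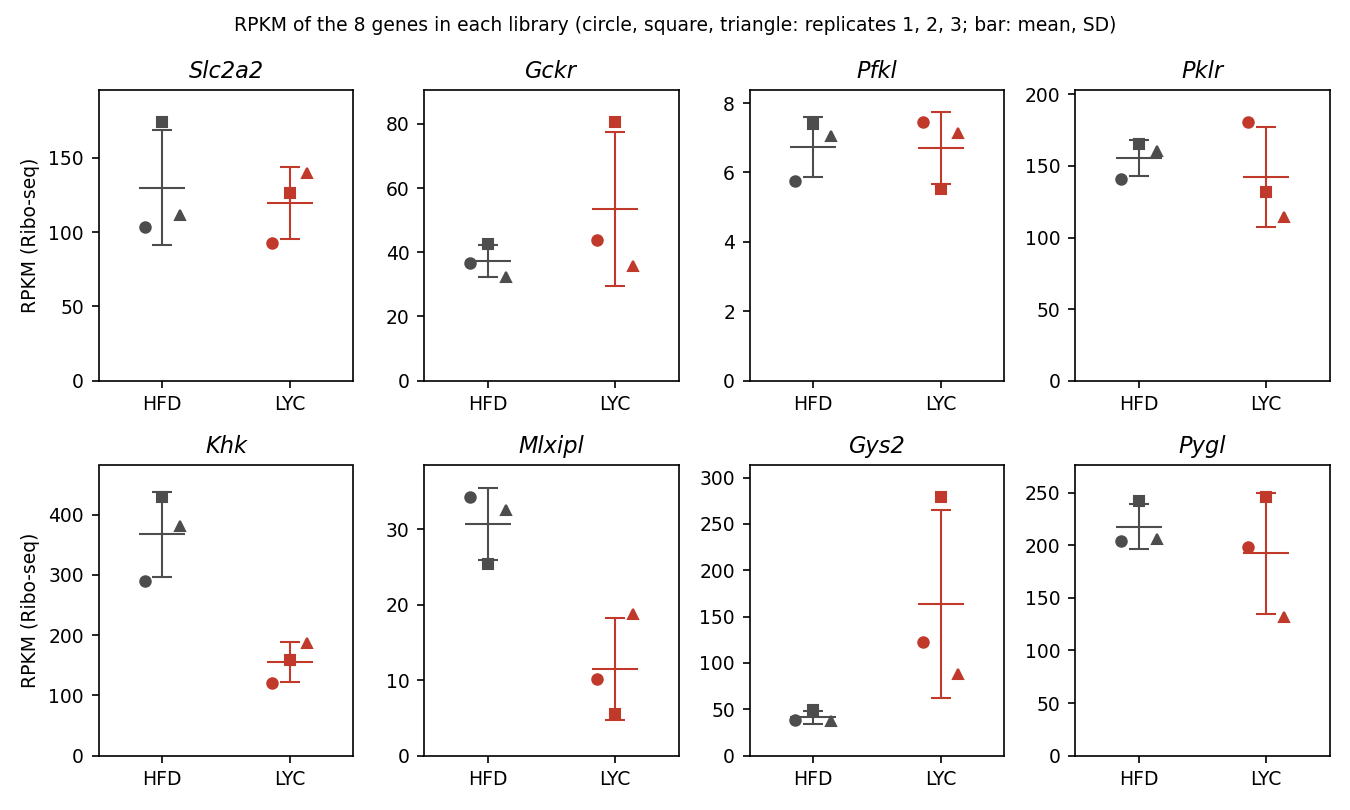
RPKM of each of the 8 genes in the 3 HFD and 3 LYC Ribo-seq libraries, with each gene on its own axis from 0, points for libraries and bars for the mean and SD. The LYC points lie above all HFD points for Gys2 and below all HFD points for Khk and Mlxipl.

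A call required limma's two-sided p to be below 0.01 before adjustment and the log2 fold change to exceed 1 in size, with Benjamini-Hochberg adjusted p-values over all 5776 genes tested. Fold changes are LYC minus HFD on the scale of log2(RPKM divided by a TMM scaling factor, plus 1). All 8 genes passed the filter on low reads. Of them 1 was called higher, where 6.98% of all genes tested were, and 0 were called lower, where 6.32% were; 13.3% were called in either direction. By adjusted p below 0.05, Gys2 was higher, beside 6.48% of all genes, and Khk was lower, beside 5.04%; 11.5% passed in either direction. As deposited, all LYC libraries lay on one side of all HFD libraries for 3 of the 8 (Khk, Mlxipl and Gys2), beside 37.4% of all genes tested, and for 3 after scaling (Khk, Gys2 and Gckr), beside 37.7%. Of all genes tested, 9.87% as deposited were higher without overlap and 27.5% were lower. The median log2 fold change of the 8 was 0.17, beside -0.10 over all genes tested. With so few genes these shares give no result about the group as a whole.

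Glucose entry and its first step were followed through Slc2a2 and Gckr. Slc2a2, which encodes GLUT2, had 104, 175 and 112 RPKM in HFD1 to HFD3 and 92.7, 126 and 140 RPKM in LYC1 to LYC3. The groups overlapped, and the highest value was in HFD2. Its log2 fold change was 0.19 (SE 0.24, 95% interval -0.35 to 0.73; limma adjusted p = 0.622). Gckr, the regulator of glucose phosphorylation, had 36.6, 42.4 and 32.4 RPKM in HFD and 43.7, 80.7 and 35.8 RPKM in LYC. LYC2 was the highest library and LYC3 lay within the HFD range, so the groups overlapped as deposited but not after TMM scaling. The log2 fold change of Gckr was 0.72 (SE 0.30, interval 0.04 to 1.40), with a limma p of 0.0393 before adjustment and an adjusted p of 0.148, so it passed neither limit of a call. Its value was 0.45 without LYC2 and 0.95 without LYC3, the latter with an adjusted p of 0.0398 in limma.

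Of the hexokinases Hk1, Hk2, Hk3 and Hkdc1, none had more than 8 reads in all of LYC, and none was tested. Slc2a2 made up 82.5% to 94.4% of the summed RPKM of 6 glucose and fructose transporters. Slc2a9 was the only other one tested, with a log2 fold change of -0.44 (limma adjusted p = 0.439), and Slc2a1, Slc2a4, Slc2a5 and Slc2a8 had too few reads.

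Glycolysis was represented by Pfkl and Pklr, the liver forms of phosphofructokinase and pyruvate kinase. Pfkl had 5.76, 7.41 and 7.06 RPKM in HFD and 7.47, 5.52 and 7.15 RPKM in LYC. The groups overlapped fully, and the LYC values rested on 12, 7 and 12 reads. Its log2 fold change was 0.25 (SE 0.32, interval -0.47 to 0.97; limma adjusted p = 0.628). Pklr, which makes pyruvate at the end of glycolysis and has the spaced motif in its window, had 141, 165 and 160 RPKM in HFD and 181, 132 and 114 RPKM in LYC. LYC held both the highest and the lowest library. Its log2 fold change was 0.14 (SE 0.28, interval -0.49 to 0.78; limma adjusted p = 0.773). A change of 2-fold lay outside the interval of Pklr in both directions.

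Pfkl made up 51.8% to 67.7% of the summed RPKM of Pfkl, Pfkm and Pfkp, and Pklr made up 89.2% to 97.0% of Pklr and Pkm. Pkm, the form of most other tissues, had a log2 fold change of 0.91 (limma adjusted p = 0.257) and overlapping libraries. Pfkfb1, the liver enzyme that makes and removes the phosphofructokinase activator fructose 2,6-bisphosphate, had 14.8, 13.3 and 12.4 RPKM in HFD and 36.4, 37.0 and 15.3 RPKM in LYC. It was called higher at a log2 fold change of 1.26 (SE 0.38, limma adjusted p = 0.0680). Pfkfb3, another such enzyme, was called higher at 1.52 (SE 0.32, limma adjusted p = 0.0212) on 66 reads in HFD and 30 in LYC. Its call was lost at 0.78 with a pseudocount of 5 and held in the other 10 fits with all libraries, up to 2.10, and in 6 of 6 with a library left out. The call of Pfkfb1 held in 5 of 12 other fits with all libraries and in 1 of 6 with a library left out.

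Khk, whose window holds an E-box, was the most abundant of the 8 in HFD and was lower in every LYC library. It had 290, 430 and 381 RPKM in HFD and 121, 158 and 188 RPKM in LYC, on 1045, 2499 and 420 reads and 63, 65 and 102 reads. The groups did not overlap, and the HFD mean was 2.36 times the LYC mean as deposited. With TMM scaling the log2 fold change was -0.94 (SE 0.24, interval -1.48 to -0.41; limma adjusted p = 0.0370). The size fell short of the limit for a call, which was passed under 4 of 12 other fits and without HFD1 or LYC3, at -1.08 and -1.10. Its adjusted p stayed below 0.05 in 12 of 18 other fits, and the highest was 0.143, without HFD3.

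Of the enzymes after Khk in fructose breakdown, Tkfc and Glyctk had values on opposite sides of 0, and neither was called. Tkfc, which phosphorylates glyceraldehyde, had a log2 fold change of 0.67 (limma adjusted p = 0.103), and Glyctk, the glycerate kinase, had -0.63 (limma adjusted p = 0.183). Sord, which makes fructose from sorbitol, was called higher at 1.23 (SE 0.23, limma adjusted p = 0.0127), with 314 to 396 RPKM in HFD and 579 to 874 RPKM in LYC. With total reads as the only scaling the call of Sord was lost at 0.94. The ratio of Khk to Slc2a2 within a library, in which scaling cancels, was 2.89 ± 0.479 in HFD and 1.30 ± 0.0446 in LYC (n = 3 each, SD), without overlap. An exact permutation test of 3 against 3 cannot give a p below 0.1, and the pairs for such ratios were chosen after the values were seen.

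**Figure D2:**
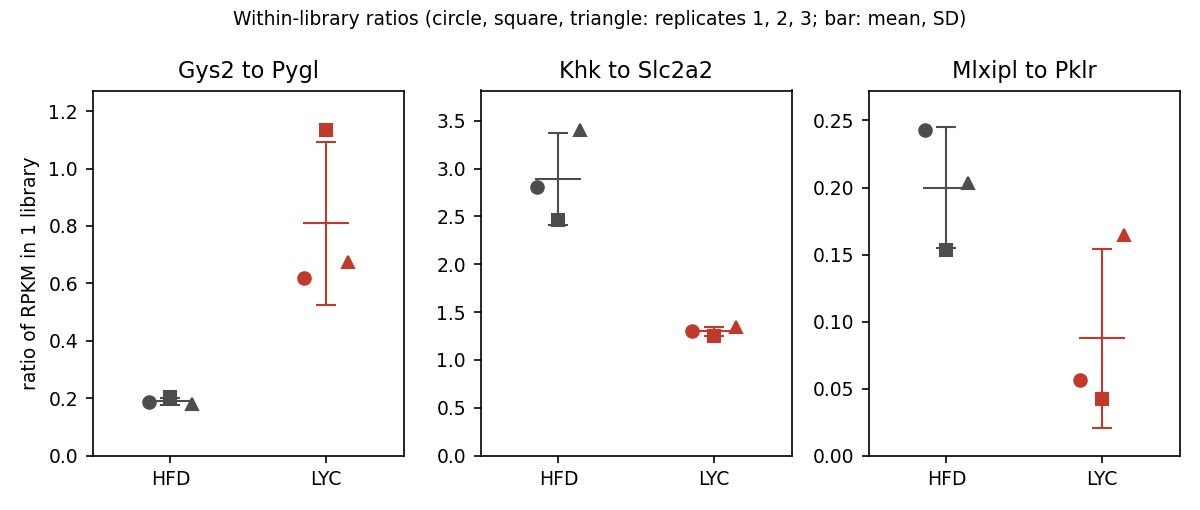
Ratios of RPKM within each library for 3 pairs of genes, with points for libraries, bars for the mean and SD, and axes from 0. Gys2 to Pygl is higher in all LYC libraries, Khk to Slc2a2 is lower in all LYC libraries, and Mlxipl to Pklr overlaps.

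Mlxipl, which encodes ChREBP, had 34.3, 25.3 and 32.6 RPKM in HFD and 10.2, 5.52 and 18.7 RPKM in LYC. These LYC values rested on 14, 6 and 27 reads, against 327, 390 and 95 in HFD. The groups did not overlap as deposited, but HFD2 and LYC3 overlapped after TMM scaling. The log2 fold change was -1.20 (SE 0.45, interval -2.22 to -0.18). The limma p was 0.0259 before adjustment and the adjusted p was 0.118, so Mlxipl passed the limit on the fold but was not called. It was the least precise of the 8. Its value was -0.74 without LYC2 and -1.62 without LYC3. Of the 6 fits with a library left out, only the one without LYC3 called Mlxipl, with an adjusted p of 0.0401 in limma. The ratio of Mlxipl to Pklr, a known target of ChREBP, was 0.200 ± 0.0450 in HFD and 0.0874 ± 0.0669 in LYC (n = 3 each, SD), with overlap.

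Mlx, the partner of ChREBP, had 11.5, 13.1 and 19.4 RPKM in HFD and 5.13, 0 and 4.91 RPKM in LYC, on 208 and 8 reads in all. Its fitted log2 fold change was -1.95 (SE 0.71, limma adjusted p = 0.113), and it was not called. Across 12 other fits with all libraries the value of Mlx ran from -3.09 to -1.10, and 3 of them called it lower. In the 4 fits with a library left out that tested Mlx, it was -2.49 to -1.03 and was not called. Mlxip, the related factor MondoA, had 276 reads in HFD and 6 in LYC and was not tested. Txnip, another known target of ChREBP, had 19.3 to 22.2 RPKM in HFD and 24.4 to 26.9 RPKM in LYC, at a log2 fold change of 0.58 (limma adjusted p = 0.157).

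Gys2 showed the clearest difference of the 8. It had 38.0, 49.2 and 37.0 RPKM in HFD and 123, 280 and 88.6 RPKM in LYC, on 275, 576 and 82 reads and 129, 231 and 97 reads. Every LYC library lay above every HFD library, and LYC2 stood well above the other LYC libraries. The LYC mean was 3.96 times the HFD mean as deposited. The log2 fold change was 2.09 (SE 0.36, interval 1.26 to 2.91; limma adjusted p = 0.0104). It was called in all 12 other fits with 6 libraries, at 1.80 to 2.25, and in all 6 with a library left out, at 1.68 without LYC2 to 2.43 without LYC3. Its adjusted p was above 0.05 in 1 of these 18, at 0.0570 without HFD3.

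Pygl, the liver phosphorylase that breaks glycogen down, had 204, 242 and 206 RPKM in HFD and 199, 246 and 132 RPKM in LYC. The groups overlapped, with LYC3 the lowest. Its log2 fold change was 0.07 (SE 0.27, interval -0.53 to 0.68; limma adjusted p = 0.883). The ratio of Gys2 to Pygl within a library was 0.190 ± 0.0122 in HFD and 0.809 ± 0.284 in LYC (n = 3 each, SD), 4.27 times higher in LYC and without overlap. In LYC2 the ratio was 1.14, so Gys2 exceeded Pygl there.

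Gys2 and Pygl were nearly the sole forms of their enzymes in these libraries. Gys2 made up 93.6% to 100% of glycogen synthase RPKM and Pygl 98.0% to 100% of phosphorylase RPKM. Gys1, the muscle synthase, had 54 reads in HFD and 0 in LYC, where a count of 0 allows up to 3 reads in each library. Pygb and Pygm, the brain and muscle phosphorylases, had 3 reads and 1 read in LYC. None of these was tested.

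Of 7 other glycogen synthesis genes tested, Ugp2 and Gbe1 were called higher, where 6.98% of all genes tested were. Values lay above 0 for 3 of the 7 and below 0 for 4. Their median log2 fold change was -0.09, beside -0.10 over all genes tested. Ugp2, which makes UDP-glucose, the substrate of Gys2, had 117, 167 and 95.6 RPKM in HFD and 248, 234 and 252 RPKM in LYC, at a log2 fold change of 1.28 (SE 0.24, limma adjusted p = 0.0138). Gbe1, the branching enzyme, had 45.9, 73.8 and 37.3 RPKM in HFD and 91.6, 88.2 and 103 RPKM in LYC, at 1.18 (SE 0.26, limma adjusted p = 0.0242). Neither overlapped between groups, and without HFD3 the call of Gbe1 was lost at 0.99. With total reads as the only scaling both calls were lost, at 0.98 for Ugp2 and 0.89 for Gbe1. Ppp1r3b and Ppp1r3c, which bring protein phosphatase to glycogen, had -0.30 and -1.03 (limma adjusted p = 0.396 and 0.131). The primer Gyg had 43 reads in HFD and 10 in LYC and was not tested.

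In glycogen breakdown nothing was called. The phosphorylase kinase subunits Phka2 and Phkb had log2 fold changes of 0.61 and 0.05 (limma adjusted p = 0.255 and 0.948), and Phkg2 had 3 reads in LYC.

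**Figure D3:**
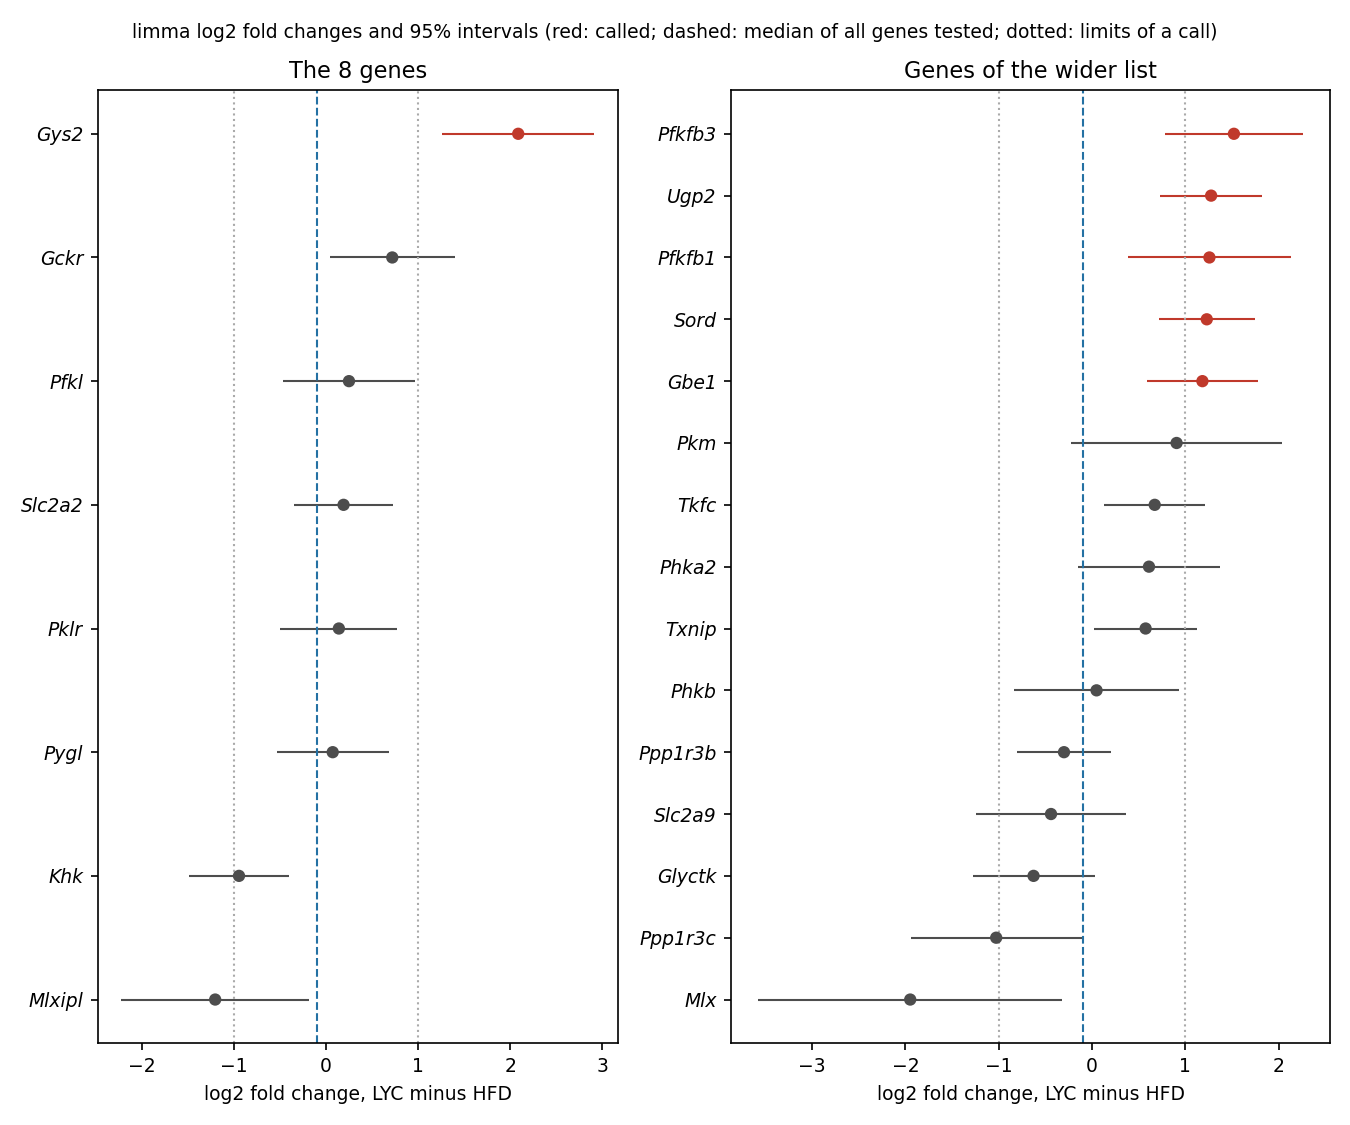
Log2 fold changes, LYC minus HFD, with 95% intervals from limma, for the 8 genes (left) and genes named from the wider list that were tested (right). Red marks called genes; Gys2 at 2.09 lies farthest right on the left panel and Mlxipl at -1.20 farthest left.

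The wider list held 79 other genes of glucose, fructose, glycogen, pentose phosphate and galactose metabolism and of ChREBP. All were found, 43 were tested, 6 were called higher, beside 6.98% of all genes, and 0 were called lower, beside 6.32%. By limma with an adjusted p below 0.05, 5 of the 43 were higher, beside 6.48% of all genes, and 0 were lower, beside 5.04%. The median of the list was 0.47, beside -0.10 over all genes tested. Of 12 glycolysis genes tested 2 were called higher (Pfkfb1 and Pfkfb3), of 6 fructose and polyol genes 1 (Sord) and of 7 glycogen synthesis genes 2 (Gbe1 and Ugp2). No gene was called among 5 of glycogen breakdown, 6 of the pentose phosphate pathway, 3 of galactose use and 2 of ChREBP. With total reads as the only scaling, 1 of the list was called higher (Pfkfb3) and 2 were called lower (Mlx and Ppp1r3c).

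Scaling moved the values of all genes together. Over all genes tested the median was -0.10 with TMM factors and -0.36 with total reads alone, a shift of 0.26. With total reads alone Slc2a2, Pfkl, Pklr and Pygl turned from values above 0 to -0.10, -0.01, -0.15 and -0.22, each still above that median. Gckr was 0.43, Gys2 1.80, Khk -1.24 and Mlxipl -1.48, and the last 2 were then called lower.

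**Figure D4:**
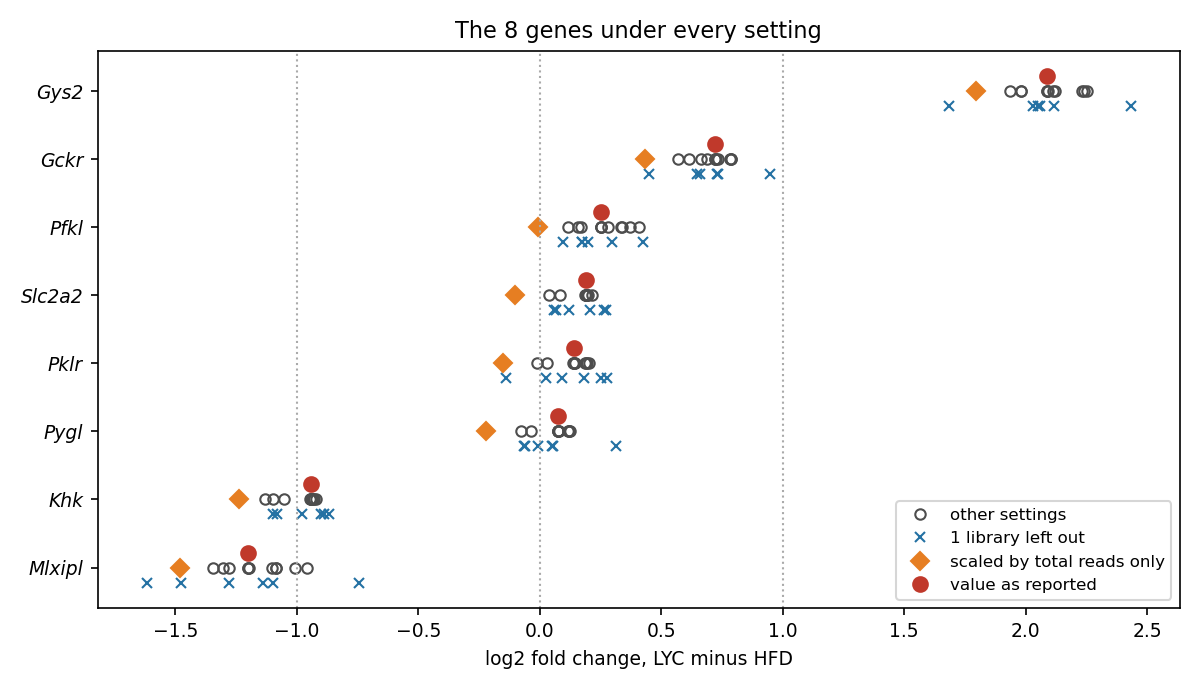
Log2 fold changes of the 8 genes in the fit reported (red), with total reads as the only scaling (orange), in other settings (open circles) and with 1 library left out (crosses). Gys2 stays above 1 and Slc2a2, Pfkl, Pklr and Pygl have values on both sides of 0.

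The 8 genes did not follow one pattern across the 6 libraries. On the log2 scale of the test, Gys2 and Gckr had a Pearson r of 0.95, and Gys2 had -0.94 with Khk and -0.93 with Mlxipl. Gckr and Mlxipl had -0.96, Khk and Mlxipl 0.79, and Pfkl and Pklr 0.73. These 6 points share their library depth and fall into the 2 diet groups, so the values describe the libraries. Among 5775 other genes, those most like Gys2 were S100a13 and Hspa9 (0.998 and 0.997) and those most like Khk were Arhgap26 and Hipk2 (0.996 and 0.991). Hnrnpr and Cfb were most like Mlxipl (0.988 and 0.986), Arpc2 and Phb2 most like Gckr (0.995 and 0.994), and Ubap2 and Mrpl49 most like Pygl (0.999 and 0.992). Gatb and Cyp3a57 were most like Slc2a2 (0.986 and 0.947), Pepd and Akap9 most like Pfkl (0.988 and 0.985), and Itpr1 and Smc6 most like Pklr (0.981 and 0.977).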

How the data were processed

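Ribo-seq and RNA-seq samples of HFD and LYC livers were mapped to groups by their titles, 12 samples in all. The authors deposited RPKM values per gene for Ribo-seq, and read counts beside RPKM for a table named RNA-seq. Per the study's methods reads were cleaned by cutadapt and bowtie2, aligned to mm10 (GRCm38) by STAR and quantified by FANSE2, with versions and annotation release not given in the sources used here. From the RPKM steps reads were recovered, with whole numbers taken within 0.02 reads; in a simulation of 3000 genes with some starting lengths made wrong, 96.6% of 13429 values came back right. Of 25033 Ribo-seq entries, 4 that shared a name were left out, and 26 names had been turned into dates.

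Each column of the second table matched 1 Ribo-seq library, with a median chi-square over genes of at most 0.0287 times that of independent draws, against 2.39 to 7.62 for the other pairs. Pearson r on log2 RPKM was 0.932 to 0.961 for matched pairs and 0.811 to 0.933 for the others. Numbering of its HFD columns differed, with its HFD1 matching HFD2, its HFD2 matching HFD3 and its HFD3 matching HFD1. Of 24 LYC counts of the 8 genes 14 were equal to the recovered reads and none differed by more than 2, and HFD counts differed by at most 12.5%. That table was therefore not tested as a second measurement. An edgeR test on its counts is included only among the other fits with all libraries, as an alternative on the same libraries.

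RPKM was divided by TMM factors, 1 was added, and log2 values were fitted with limma (eBayes, trend) over the genes that edgeR's filterByExpr kept. In simulated data at these depths limma gave p below 0.01 in the right direction for 94 of 95 genes changed 4-fold. It did so for 56 of 95 changed 2-fold, and it picked out 61 of 5837 unchanged genes. These counts were not made with the limit of 1 on the log2 fold change, so the rule for a call was not tested there. The members, lists and alternatives were chosen with earlier results of these data known. Genes named were the 8, their isoforms and direct partners, called genes of the wider list, and the 2 genes of highest Pearson r with each. Some genes so selected are not reported here. Within-library ratios were chosen after their values were seen. Promoters came from RefSeq (GRCm38.p6). Tools were limma 3.58.1, DESeq2 1.42.0 and edgeR 4.0.16 in R 4.3.3, and pandas 2.3.3, numpy 2.4.6 and matplotlib 3.10.9 in Python 3.11.15. Alternatives were other scalings, pseudocounts, filters, thresholds, tests, a gene length correction, a replicate block and leaving out each library.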

Additional observations from a re-analysis of the deposited data

How the results depend on the processing

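Gys2 was called higher under each alternative run, and the count of the 8 genes called higher stayed at 1. The count called lower was 0 as reported. It was 2 with total reads as the only scaling, and 1 with no filter, with a mean RPKM of at least 5, with the replicate block, with the gene length trend removed and with an adjusted p below 0.05 in place of the fold limit. Leaving out a library gave 0 to 2. Khk was called at -1.24 with total reads, -1.10 with no filter, -1.05 with a mean RPKM of at least 5 and -1.13 with the length trend removed, and leaving out a library gave -1.10 to -0.87. Mlxipl was called at -1.48 with total reads. Leaving out a library gave -1.62 to -0.74, and it was called only without LYC3, at -1.62. Slc2a2, Pfkl, Pklr and Pygl turned to -0.10, -0.0088, -0.15 and -0.22 with total reads. With no filter Pklr was -0.012 and Pygl -0.079, and with a mean RPKM of at least 5 Pygl was -0.036. Leaving out a library gave -0.14 to 0.28 for Pklr and -0.065 to 0.31 for Pygl. Phkb was -0.19 with total reads and -0.072 with no filter, and leaving out a library gave -0.22 to 0.39.

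Over all genes, 403 were called higher and 365 lower. The counts were 235 and 651 with total reads and 196 and 101 at p below 0.001. The count lower was 222 with a pseudocount of 5 and 876 with no filter, which tests more genes. Leaving out a library gave 268 to 574 higher and 143 to 704 lower. In the wider list, 6 were called higher and 0 lower. The counts were 1 and 2 with total reads, 2 higher at p below 0.001, and, for lower, 1 with a pseudocount of 5, 3 with no filter, 1 with a mean RPKM of at least 5 and 1 with the replicate block. Leaving out a library gave 3 to 8 higher and 0 to 3 lower. The cause of these moves was not tested.

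The labels do not link same-numbered libraries of HFD and LYC. Deviations of same-numbered libraries correlated at 0.0073 to 0.108, so the numbers were not taken as pairs. With the replicate block Mlxipl was called at -1.20 (limma adjusted p = 0.0662), and 397 genes were called higher and 343 lower. An edgeR test on the second table's counts, added after the data were seen, gave 2.23 for Gys2, -0.92 for Khk and -1.01 for Mlxipl and called Gys2 alone of the 8. Depth limits Pfkl and Mlxipl, which had 31 and 47 reads in all of LYC, the lowest of the 8. The alternatives planned for a separate test of the table labelled RNA-seq were not run, since its columns matched these libraries.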
